A study of Mus musculus with 12 samples.

Results

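Among the transcripts followed in TGFβ-treated fibroblast colonies are 4 that are best known from striated muscle. They are the miRNA miR-206-3p and the mRNAs Tnnt2 (cardiac troponin T), Des (desmin) and Actc1 (cardiac α-actin). miR-206-3p was taken from a table of 1281 mature miRNAs, and the 3 mRNAs were looked up among the 2091 genes listed in any of 3 day tables of mRNA ratios. All 4 were selected on their TGFβ to vehicle ratios in these same libraries, so what follows describes them and tests nothing. AKR-2B cells, a mouse fibroblast line, had grown as anchorage-independent colonies in soft agar with TGFβ at 25 ng/mL or with vehicle. The groups are TGFβ and vehicle at days 2, 4 and 8, with 1 miRNA library and 1 mRNA library for each condition and day, 12 in all. No difference within a day therefore has a replicate check. The 95% intervals below express counting error and nothing more, because reads that carry no molecular identifier may be copies of 1 molecule.

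Sarcomeres contract when calcium binds the troponin complex on thin filaments built of actin. Troponin T anchors that complex to tropomyosin, and Tnnt2 is the form of the heart and of developing skeletal muscle. Actc1 is the main actin of cardiac thin filaments, and Des is the intermediate filament that ties neighbouring myofibrils together. miR-206 is one of the muscle miRNAs, made in skeletal muscle and during myoblast differentiation, where it shares its seed with miR-1 and is known to lower mRNAs such as Gja1, Hdac4 and Pax7. TGFβ is known as an inhibitor of myoblast differentiation, and in fibroblasts as an inducer of matrix and cytoskeletal genes.

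The sequence of miR-206 is shown because its seed decides which mRNAs it can pair with. Its hairpin lies at chr1:20679010-20679082 on the plus strand of GRCm38.p6 (RefSeq), inside the lincRNA gene Gm28653 (GENCODE M21), which also holds the Mir133b hairpin 3687 bases downstream. In the hairpin the capitals mark the mature 3p arm. In the mature sequences they mark the seed, bases 2 to 8 from the 5′ end. miR-6349 and miR-6382 are shown beside miR-206-3p because they carry the same seed, GGAAUGU. miR-1a-3p, which is known to carry it too, is named only.
Mir206 hairpin: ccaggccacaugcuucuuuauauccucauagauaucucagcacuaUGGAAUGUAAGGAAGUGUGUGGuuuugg
mmu-miR-206-3p: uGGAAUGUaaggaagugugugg
mmu-miR-6349: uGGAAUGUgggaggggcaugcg
mmu-miR-6382: uGGAAUGUaaagagagcacacaag
All reads of the locus came from the 3p arm: miR-206-5p, miR-133b-3p and miR-133b-5p had 0 reads in all 6 libraries, as had miR-6349 and miR-6382. In the shallowest library 3 reads are 24.3 CPM, and the interval of 0 reads reaches 29.9 CPM.

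miR-206-3p was higher in the TGFβ library than in the vehicle library of each day. At day 2 it had 31 reads with TGFβ and 10 with vehicle, which is 183 CPM (reads scaled to a common library size, interval 124 to 260) and 81.0 CPM (38.8 to 149). At day 4 it had 45 reads with TGFβ and 5 with vehicle, or 117 CPM (85.1 to 156) and 18.5 CPM (6.00 to 43.1). At day 8 it had 156 reads with TGFβ and 7 with vehicle, or 130 CPM (110 to 152) and 15.4 CPM (6.19 to 31.7). The intervals of the day 2 libraries overlapped. The scaled ratio of TGFβ to vehicle was 2.26 (1.08 to 5.17) at day 2, 6.31 (2.51 to 20.4) at day 4 and 8.41 (3.99 to 21.3) at day 8. The vehicle side of every ratio rests on 10 reads or fewer, which sets the width of these intervals.

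**Figure D1:**
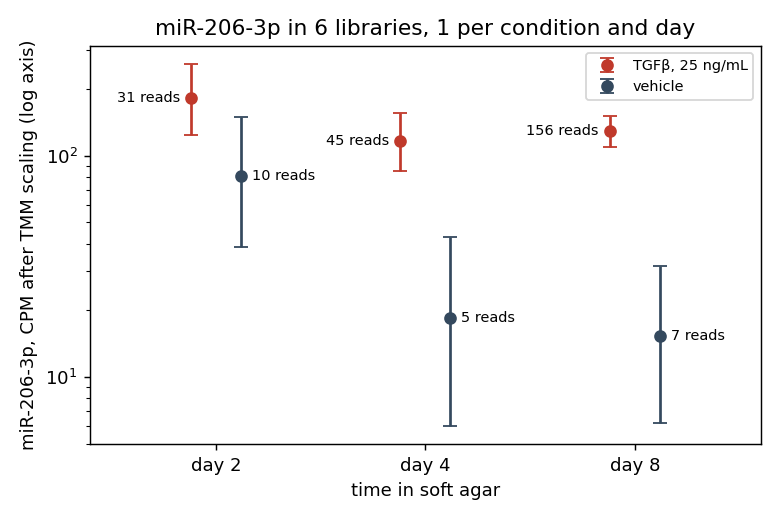
Level of miR-206-3p (CPM after TMM scaling, log axis) in the TGFβ and vehicle libraries of days 2, 4 and 8, 1 library per point, with exact Poisson 95% intervals and the read count beside each point. The TGFβ points lie between 117 and 183 CPM, while the vehicle points stand at 81.0, 18.5 and 15.4 CPM.

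The gap between the conditions was wider at later days, though the counting intervals of the TGFβ to vehicle ratios of the days overlap. The level that moved most was that of vehicle colonies. In vehicle colonies the day 4 level was 0.228 times the day 2 level (0.0612 to 0.733), and the day 8 level was 0.190 times (0.0614 to 0.553). The log2 change between days 2 and 4 in vehicle, -1.89, was the eighth lowest of 361 miRNAs measured in those libraries, of which 13.0% were at least 2-fold lower; between days 2 and 8 in vehicle that share was 18.3% of 360. In TGFβ colonies the day 4 level was 0.638 times the day 2 level (0.395 to 1.04) and the day 8 level 0.708 times (0.479 to 1.08), so both intervals include no change. Each also overlaps the vehicle interval of the same day, though overlap does not show that the changes were alike. Whether the 2 conditions differed in their change over time was not tested. TGFβ colonies at day 8 stood at 1.11 times their day 4 level (0.792 to 1.58). The day 2 vehicle library enters 2 of these ratios with 10 reads out of 108716, the lowest total of the 6.

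On the log2 scale the TGFβ response of miR-206-3p was 1.13, 2.39 and 2.75 at days 2, 4 and 8, which placed it 37th of 362 miRNAs, 10th of 366 and 7th of 361. It was at least 2-fold higher at each day, as were 11.9%, 21.6% and 20.2% of all miRNAs measured at days 2, 4 and 8. Of 325 miRNAs measured at all 3 days, 9 (2.77%) were at least 2-fold higher at every one. Scaling by total counts put the day 2 log2 ratio at 0.88, below 2-fold. The authors' RPM values were 173 with TGFβ and 92.0 with vehicle at day 2, 97.9 with TGFβ and 21.5 with vehicle at day 4, and 112 with TGFβ and 16.9 with vehicle at day 8.

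**Figure D2:**
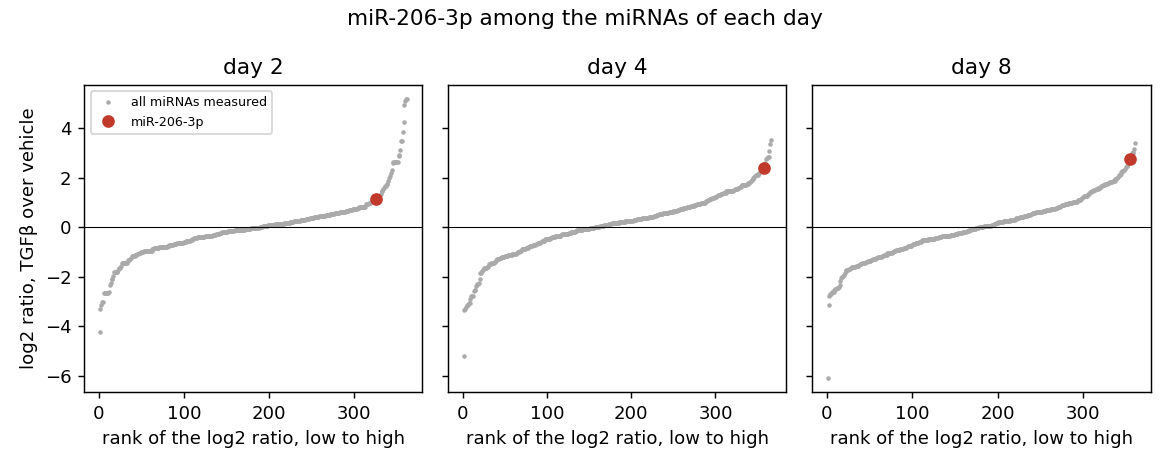
The log2 ratio of TGFβ over vehicle for every miRNA averaging 10 CPM or more over the day's libraries (grey), in order from low to high, 1 panel per day, with miR-206-3p in red. Its log2 ratio was 1.13, 2.39 and 2.75 at days 2, 4 and 8.

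The other muscle miRNAs gave few reads. Of 16 listed mature forms of miR-1, miR-133, miR-208 and miR-499, 3 were detected and 13 had 0 reads in every library. Of all 1281 mature miRNAs, 424 to 581 were detected in a given library. miR-1a-3p, the seed partner of miR-206 in muscle, had 6 reads with TGFβ and 1 with vehicle at day 2, 1 with TGFβ and 1 with vehicle at day 4, and 0 in both libraries of day 8. miR-133a-3p had 2 reads in the day 8 TGFβ library and miR-499-5p 2 in the day 2 TGFβ library, with 0 in every other library. miR-378a-3p, abundant in muscle and in many other tissues, had 6174 CPM in the day 2 TGFβ library, and its ratio of TGFβ to vehicle was 0.889 (0.812 to 0.975), 0.910 (0.867 to 0.955) and 0.942 (0.917 to 0.969) at days 2, 4 and 8. miR-486-5p, known from muscle and red cells, stood at 0.643, 0.810 and 0.559 times the vehicle level. miR-378a-5p, the other arm of miR-378a, stood at 0.602, 1.09 and 1.40 times the vehicle level.

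miRNAs of other tissues moved too. Their summed level was 1334 CPM with TGFβ and 381 CPM with vehicle at day 2, 417 and 340 CPM at day 4, and 563 and 367 CPM at day 8. In the day 2 TGFβ library the epithelial miR-200b-3p, miR-200a-3p and miR-200c-3p had 77, 26 and 26 reads, against 1, 0 and 2 in the day 2 vehicle library, and the liver miRNA miR-122-5p had 8 against 0. miR-205-5p, also epithelial, went the other way at day 2, with 0 reads with TGFβ and 3 with vehicle. At day 8 miR-205-5p had 10 reads with TGFβ and 0 with vehicle. At day 4 miR-122-5p had 0 with TGFβ and 3 with vehicle. The neural miR-9-5p made up most of the sum at days 4 and 8. Of 14 such miRNAs listed, 10 were detected, and miR-142-3p, miR-451a, miR-144-3p and miR-124-3p were at 0 throughout. Their part in the day 2 value of miR-206-3p was not tested.

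Over the 6 libraries the miRNA whose log2 level ran most like that of miR-206-3p was miR-27a-5p, with a Pearson r of 0.977 among 373 miRNAs. It had 1942 CPM with TGFβ and 1498 CPM with vehicle at day 2, 1888 and 676 CPM at day 4, and 2112 and 477 CPM at day 8. Like miR-206-3p it was lower in the later vehicle libraries than in that of day 2. miR-21a-5p (r = 0.951), miR-5117-3p (0.945), miR-3096b-3p (0.930) and miR-155-5p (0.923) followed. These are descriptions over 6 libraries that share depth and scaling.

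The 3 mRNA tables deposited by the authors give 1 ratio per gene and day, with no value per library. Each lists 998 genes, 499 above 1 (50.0%) and 499 below. The smallest listed ratio above 1 was 3 at day 2 and 5 at days 4 and 8, and the smallest listed decrease was 7-fold. Absence from a table therefore says nothing of how small a change was. No header says which condition is on top. TGFβ over vehicle was assumed here because, of 24 known direct TGFβ targets, day 2 then lists 2 above 1 and 0 below, day 4 lists 9 and 1, and day 8 lists 4 and 1. Genes of smooth muscle contraction, which TGFβ is also known to raise in fibroblasts, lie the other way under this reading. Of 18 such genes, day 2 lists 0 above 1 and 4 below, day 4 lists 0 and 5, and day 8 lists 1, which is Des, and 5. Col27a1, the host gene of miR-455, had ratios of 3.74, 6.43 and 7.45 in the authors' deposited tables, and miR-455-3p had 80 reads with TGFβ and 28 with vehicle at day 2, 828 with TGFβ and 84 with vehicle at day 4, and 1920 with TGFβ and 80 with vehicle at day 8. If the tables ran the other way, the direction of each mRNA below would turn round.

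Reduced to lowest terms, 2988 of the 2994 ratios had an odd number above and below the line. Counts plus 0.5 that are not scaled for depth take this form. The smallest reads behind a ratio follow from it, though any odd multiple of both numbers gives the same ratio. No total of an mRNA library was used here, and any difference in depth between a day's libraries remains in its ratios.

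Tnnt2 (chr1:135836354-135852260, plus strand, GENCODE M21 on GRCm38) had the most reads of the 3 mRNAs and was listed above 1 at every day. At day 2 its ratio in the authors' deposited table was 12.4, from at least 155 reads with TGFβ and 12 with vehicle (counting interval of the ratio of those reads 7.19 to 25.5). At day 4 the authors' deposited table gave 528, from at least 791 reads with TGFβ and 1 with vehicle (142 to 31282). At day 8 the authors' deposited table gave 152, from at least 836 reads with TGFβ and 5 with vehicle (71.4 to 516). It ranked 33rd, 3rd and 12th among the genes above 1, at day 4 behind the matrix metalloproteinase genes Mmp12 and Mmp10. The next gene below it at day 4 was Gpr123, at 259 in the authors' deposited table, and at day 8 its neighbours there were Lrrc15 at 157 and F13a1 at 135. The larger ratio of day 4 than of day 8 rests on 1 vehicle read against 5, and the intervals of those days overlap. With 1 in place of 0.5 added to the counts, the day 4 value would be 396.

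Des (chr1:75360329-75368579, plus strand) and Actc1 (chr2:114047282-114053548, minus strand) were each listed at 1 day, on very few reads. The ratio of Des in the authors' deposited table was 7 at day 8, the form of 3 reads with TGFβ and 0 with vehicle, and 70 genes of that table held exactly this ratio. The ratio of Actc1 in the authors' deposited table was 5 at day 4, the form of 2 reads with TGFβ and 0 with vehicle. It stood at the edge of the table, where 82 genes held the same, smallest ratio above 1. Reads of 10 and 1 would give Des the same ratio, and reads of 7 and 1 would give it to Actc1. At the smallest reads, the counting intervals begin at 0.413 for Des and 0.188 for Actc1 and so include a ratio of 1. Counted over whole genes, introns included, Actc1 lies within the annotated antisense gene A530058N18Rik (6267 bases shared). The last 368 bases of Des overlap the antisense Gm15179. Without strand, reads from bases that are exon in both genes of a pair cannot be assigned to either. The overlap of exons was not computed.

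**Figure D3:**
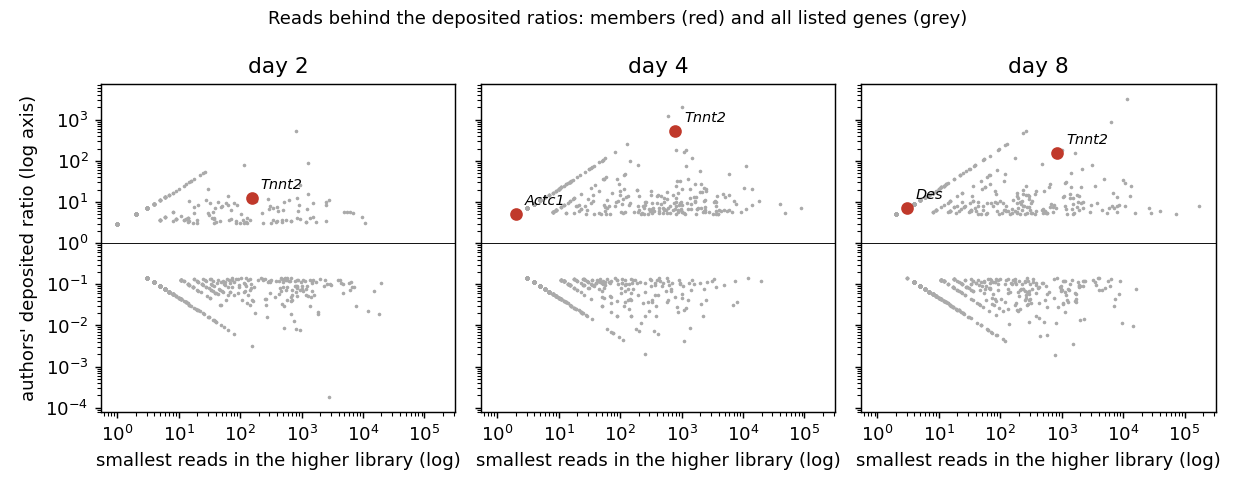
The authors' deposited ratio of every listed gene (grey, log axis) against the smallest reads it implies in the higher of the day's libraries (log axis), 1 panel per day, with Tnnt2, Des and Actc1 in red. Tnnt2 rests on at least 155, 791 and 836 reads, whereas Actc1 and Des lie at the low end with 2 and 3.

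The promoters of the 3 genes are shown because they are the sequences that muscle regulators are known to bind. Each runs from 250 bases before to 50 after a RefSeq start (GRCm38.p6), 5′ to 3′ on the gene's strand. The capitals mark E-boxes (CANNTG, bound by myogenic factors), M-CAT elements (CATTCC, bound by TEAD factors) and the CArG box (bound by SRF), searched on both strands; no marked motifs overlap. Of the 2 RefSeq starts of Tnnt2 the upstream one is printed, and RefSeq starts need not be those of GENCODE. The windows are chr1:135836084-135836383 for Tnnt2, chr1:75360042-75360341 for Des and chr2:114052826-114053125 for Actc1.
Tnnt2: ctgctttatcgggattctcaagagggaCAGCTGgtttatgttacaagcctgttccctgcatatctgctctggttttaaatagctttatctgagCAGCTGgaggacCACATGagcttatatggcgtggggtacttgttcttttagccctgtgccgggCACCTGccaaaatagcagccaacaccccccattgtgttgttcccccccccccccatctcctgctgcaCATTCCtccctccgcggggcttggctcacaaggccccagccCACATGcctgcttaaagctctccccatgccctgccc
Des: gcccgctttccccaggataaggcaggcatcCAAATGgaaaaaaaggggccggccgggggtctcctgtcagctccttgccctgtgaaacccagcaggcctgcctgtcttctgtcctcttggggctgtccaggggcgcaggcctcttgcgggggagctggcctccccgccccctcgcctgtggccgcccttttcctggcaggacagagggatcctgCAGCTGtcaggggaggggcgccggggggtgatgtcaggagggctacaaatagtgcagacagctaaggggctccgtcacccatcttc
Actc1: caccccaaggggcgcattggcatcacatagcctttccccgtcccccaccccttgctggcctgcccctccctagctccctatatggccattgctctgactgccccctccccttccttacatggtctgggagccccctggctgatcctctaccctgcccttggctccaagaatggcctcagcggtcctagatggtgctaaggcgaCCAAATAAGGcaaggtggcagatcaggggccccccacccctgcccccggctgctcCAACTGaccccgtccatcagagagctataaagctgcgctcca
The Tnnt2 window held 5 E-boxes and 1 M-CAT element, which starts 27 bases before the start. The Des window held 2 E-boxes, and the Actc1 window held 1 E-box and a CArG box starting 47 bases before the start. Of all 32851 promoters of this length, 72.31% held an E-box, 14.66% an M-CAT element and 1.629% a CArG box. The window of the downstream Tnnt2 start, not printed, held 2 E-boxes and no M-CAT element or CArG box. A match is a description of letters and does not show binding.

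Of the 8 troponin genes 4, the selected member Tnnt2 included, were listed at any day, where 8.16% of all protein-coding genes were. The 4 listed lay on both sides of 1. The slow skeletal troponin I gene Tnni1 had, in the authors' deposited tables, ratios of 3, 6.33 and 63 at days 2, 4 and 8, from at least 1, 9 and 31 reads with TGFβ and 0, 1 and 0 with vehicle. With the 0 reads of day 8 set to 3, Tnni1 was 10.3-fold higher with TGFβ at that day. Its counting interval at the smallest reads began at 7.91. In the authors' deposited table of day 4, the fast skeletal troponin C gene Tnnc2 stood at 5.67, on at least 8 reads with TGFβ and 1 with vehicle. Tnnt1, the slow skeletal counterpart of Tnnt2, lay on the other side in the authors' deposited tables. Its smallest reads were 0 with TGFβ and 18 with vehicle at day 4. With 0 set to 3 that is 6-fold lower with TGFβ, and the counting interval began at 4.40-fold lower. At day 8 the smallest reads were 4 with TGFβ against 50 with vehicle, 11.2-fold lower (4.59 to 47.7).

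**Figure D4:**
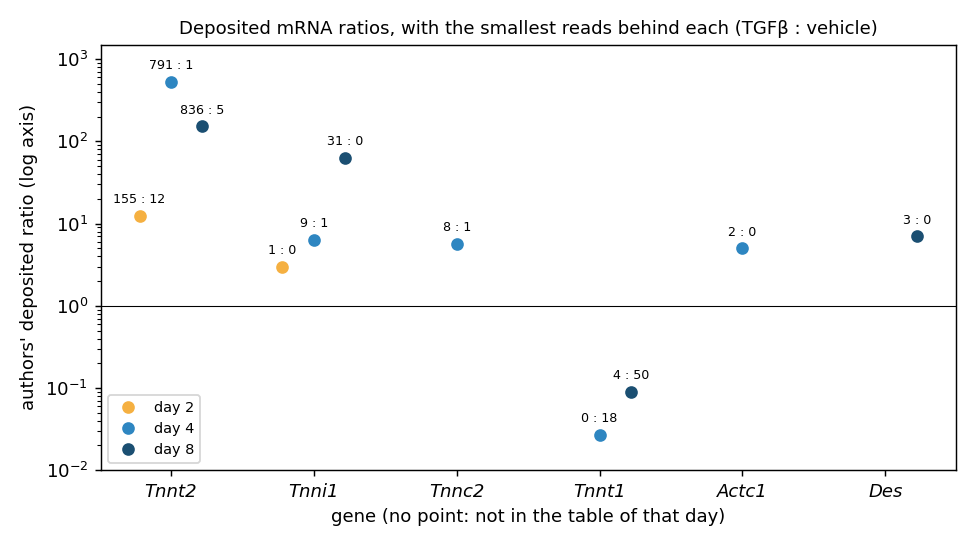
The authors' deposited ratios (log axis) of the 4 listed troponin genes, Actc1 and Des at days 2, 4 and 8, with the smallest reads behind each written as TGFβ : vehicle. Tnnt2 reaches 528 on 791 reads, Des and Actc1 rest on 3 and 2 reads, and Tnnt1 lies below 1.

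Tnnt2 stands among other listed genes on chromosome 1. Tnni1 ends 25365 bases upstream of it, with Lad1 (ladinin, a basement membrane protein of epithelia) between them, and Pkp1 (plakophilin, a desmosome protein) lies 19135 bases downstream on the opposite strand. Pkp1 had, in the authors' deposited tables, ratios of 15, 7 and 45 at days 2, 4 and 8, from at least 7, 3 and 22 reads with TGFβ and 0 with vehicle at each day. Lad1 was listed at day 8 only, with a ratio of 9 in the authors' deposited table, from at least 4 reads with TGFβ and 0 with vehicle. These 3 of the 10 protein-coding genes within 250 kb were listed above 1, against 4.23% of all 21924 protein-coding genes listed above 1 at any day. Of 927 protein-coding genes listed above 1, 8.2% had 3 or more such neighbours. Of the protein-coding genes within the same distance, 1 of 25 was listed on either side of 1 around Des, 1 of 5 around Actc1 and 0 of 5 around Mir206, against 8.16% of all protein-coding genes. The gene near Actc1, Scg5, lay below 1.

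**Figure D5:**
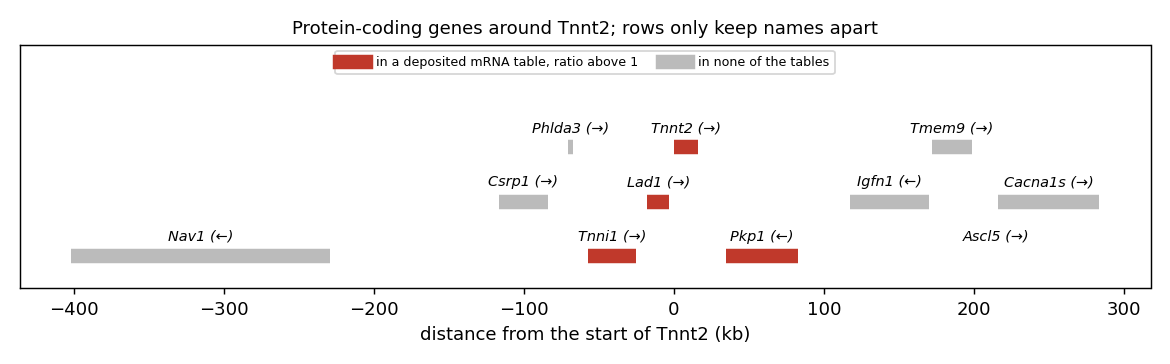
Protein-coding genes within 250 kb of Tnnt2, by distance from its start (kb, to scale, arrows for strand); the rows only keep names apart. Tnni1, Lad1, Tnnt2 and Pkp1, in red, had a deposited ratio above 1 at 1 or more days, and the genes in grey were in none of the tables.

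Other sarcomere genes went both ways. Of 80 genes of the sarcomere and of muscle contraction, the 3 members included, 18 were listed at any day, where 8.16% of all protein-coding genes were. Of these, day 2 listed 4 above 1 and 1 below, day 4 listed 7 and 4, and day 8 listed 6 and 5. Without the 3 members these counts were 3 and 1, 5 and 4, and 4 and 5, with median log2 ratios of 1.58, 2.32 and -3.17 where all listed genes had -0.61, -0.24 and -0.24. Since a table holds as many genes above 1 as below, these splits describe few genes. Ankrd1, a titin-binding repeat protein of cardiac muscle, had a ratio of 35.7 at day 4 from at least 53 reads with TGFβ and 1 with vehicle in the authors' deposited table, and of 33.3 at day 8 from at least 116 and 3. Myoz2, a Z-disc protein, had ratios of 11 at day 2 and 9 at day 4 in the authors' deposited tables, on at least 5 and 4 reads with TGFβ and 0 with vehicle. At those reads its counting intervals include 1. Cryab, a chaperone of desmin filaments, had the most reads of the list, at least 542 with TGFβ and 4246 with vehicle at day 2, where it was 7.83-fold lower in the authors' deposited table. Several others rest on few reads. Csrp3, Smyd1 and Lmod2 lay above 1 on at most 3 smallest reads with TGFβ and 0 with vehicle, and Ryr2, Mybpc3 and Myom2 lay below 1 on 0 with TGFβ and 7, 6 and 4 with vehicle. With the larger odd number at 41 or more, which means at least 20 reads in 1 library, day 2 kept 1 above and 1 below, day 4 kept 2 and 2, and day 8 kept 3 and 2. Over all such genes of a table, 30.1% were above 1 and 69.9% below at day 2, 53.9% above and 46.1% below at day 4, and 46.0% above and 54.0% below at day 8.

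Of 37 myogenic and cardiac regulators 4 were listed at any day, a share near the 8.16% of all protein-coding genes, and Myod1, Myog, Myf5, Myf6 and Pax7 were not among them. Tmem8c and Dok7 lay above 1 at day 2, each on smallest reads of 1 with TGFβ and 0 with vehicle. Chrnd and Nppa lay below 1 at day 8. Of 15 defining markers of skeletal or cardiac muscle 3 were listed and 0 lay above 1, where 4.23% of all protein-coding genes did. In the authors' deposited tables the α-actinin gene Actn2 was 13.7-fold lower at day 4, and at day 8 the natriuretic peptide gene Nppa was 9.67-fold lower and the myosin gene Myh7 was listed below 1 too. These rested on at least 1 read with TGFβ and 20 with vehicle for Actn2, 0 and 6 for Myh7, and 1 and 14 for Nppa. With 0 set to 3, Myh7 was 2-fold lower, and its counting interval at the smallest reads began at 1.18-fold lower. The 3 defining markers listed thus lay on the other side of 1 from Tnnt2, and for the other 12 the tables give no value. Of 4 fibroblast markers 0 were listed, so the tables do not show the identity of these cells as fibroblasts. Of 16 marker genes of other tissues 5 were listed, all above 1, where 4.23% of all protein-coding genes were listed above 1. The endothelial Cdh5 had, in the authors' deposited tables, ratios of 31, 63 and 65 at days 2, 4 and 8, on at least 15, 31 and 32 reads with TGFβ and 0 with vehicle. With 0 set to 3, Cdh5 was 5-fold, 10.3-fold and 10.7-fold higher at those days. Its counting intervals at the smallest reads began at 3.59, 7.91 and 8.18. The epithelial Krt8 had, in the authors' deposited tables, a ratio of 33 at day 2 and of 8.6 at day 4, on at least 16 and 21 reads with TGFβ and 0 and 2 with vehicle. Their part in the values of Tnnt2 was not tested.

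Within the actin and intermediate filament families the listed relatives lay below 1. In the authors' deposited tables the smooth muscle actin gene Acta2 was lower by factors of 17.8 at day 2, 12.6 at day 4 and 16.8 at day 8, on at least 89, 183 and 501 reads with TGFβ and 1597, 2319 and 8431 with vehicle. Among the type III and IV intermediate filament genes, Prph, which codes for peripherin of neurons, was the other one listed. In the authors' deposited tables its smallest reads were 0, 0 and 1 with TGFβ and 6, 24 and 11 with vehicle at days 2, 4 and 8. With 0 set to 3, Prph was lower by 2-fold at day 2 and by 8-fold at day 4. Its counting intervals at the smallest reads began at 1.18-fold and 6.02-fold lower at those days. At day 8 Prph was 7.67-fold lower in the authors' deposited table.

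Of 18 reported targets of miR-1 and miR-206, 14 held a match to the miR-206 seed (ACATTCC, the complement of the seed, read 5′ to 3′ on the mRNA) in the longest annotated 3′ UTR. Of the 18, 3 were listed at any day, where 8.16% of all protein-coding genes were. Timp3, an inhibitor of metalloproteinases, was lower with TGFβ by a factor of 8.13 at day 4 and of 12.8 at day 8 in the authors' deposited tables. Both of these ratios gave an even term, so no smallest reads are given for Timp3. It is also the direct TGFβ target counted above as listed below 1 at days 4 and 8. Igf1, a growth factor of muscle and fibroblasts, lay on the other side, at 10.3, 26.3 and 44.3 in the authors' deposited tables, on at least 15, 39 and 66 reads with TGFβ and 1 with vehicle at each day. Notch3, a receptor of vascular smooth muscle, had a ratio 8.85-fold below 1 in the authors' deposited table of day 2, from at least 6 reads with TGFβ and 57 with vehicle, and held no match. The sites of Timp3 (chr10:86346979-86347008) and Igf1 (chr10:87930875-87930904), both on the plus strand of GRCm38, are shown because these targets have the same 8-base site, the seed match followed by A, and opposite directions. The capitals mark the seed match.
Timp3 site: gatgggaaattgtgACATTCCaagttgact
Igf1 site: aaatatacaagtaaACATTCCaacatcgtc

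Tnnt2, Des and Actc1 held no such match in their 3′ UTRs of 191, 1532 and 187 bases. Over all 20990 protein-coding genes with a 3′ UTR 10.08% held one. Among listed genes below 1 it was 10.69%, 10.74% and 9.234% at days 2, 4 and 8, and among those above 1 it was 8.933%, 11.19% and 10.98%. The median 3′ UTR of these sets was 916, 857 and 926 bases below 1 and 824, 1114 and 1049 bases above 1, and longer 3′ UTRs have more room for a match.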

How the data were processed

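Unscaled counts per mature miRNA are from the table deposited by the authors. Another of the authors' tables gives RPM values by mature form and hairpin. The authors' mRNA tables hold a ratio (fold change) per gene. Per the submitters' processing notes, edgeR 3.9 and mm10 were used, with no role stated; the aligner and the counting program were not given in the sources used here. Per the labels' protocols, mRNA libraries were made with a TruSeq RNA Sample Prep Kit, which does not mark strand.

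miRNA totals ran from 108716 to 1387785 reads. Factors of the trimmed mean of M-values (TMM), 0.839 to 1.17, came from the 309 miRNAs kept by filterByExpr in edgeR 4.0.16. Log2 ratios used a prior count of 2, for miRNAs averaging 10 CPM or more in the libraries set against each other. Intervals are exact Poisson for levels and exact conditional binomial for ratios. With 1 library per group no test was made and no p-value is given. Fractions were recovered as the simplest within rounding; 6 ratios gave an even term. Recovery and intervals were tested on simulated data. Motifs and 3′ UTRs were read from RefSeq (GRCm38.p6) and GENCODE M21. Alternatives were total counts, DESeq2 1.42.0 size factors, other prior counts, filters and added counts. The members and lists were chosen with earlier results of these data known. Genes named are the members, listed members of the lists, the 5 miRNAs most correlated with miR-206-3p, and genes ranked next to a member. Col27a1, miR-455-3p, Lad1, Pkp1 and Scg5 were named after their values were seen. 1 listed sarcomere gene is counted but not reported here by name.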

Additional observations from a re-analysis of the deposited data

How the results depend on the processing

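The log2 ratio of miR-206-3p stayed above 0 at each day under 5 alternatives (total counts, DESeq2 size factors, a prior count of 0.5, the authors' RPM values and, chosen after seeing the data, TMM factors from all miRNAs), at 0.88 to 1.16, 1.98 to 2.59 and 2.46 to 2.98 at days 2, 4 and 8. In vehicle colonies its day 4 and day 8 levels were 0.226 to 0.248 and 0.179 to 0.211 times the day 2 level under the 3 scalings tried. Of 68 alternative values 58 stayed within the counting interval or within 1.5 times the count, and 10 did not. With no filter beyond 1 read, 116 miRNAs were at least 2-fold higher and 96 lower at day 2, and with total counts 82 were lower at day 2 and 50 higher at day 4. With a larger odd number of at least 41, day 2 kept 89 mRNAs above 1 and 207 below, day 4 kept 212 and 181, and day 8 kept 194 and 228, since fewer genes are counted. No paired analysis was possible because the labels number no replicates and each condition and day has 1 library. A fit with day as a block, which would count the days as replicates of 1 condition, was not made. Depth limits the vehicle levels of miR-206-3p, at 10, 5 and 7 reads, and the ratios of Des and Actc1.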
